A study of Mus musculus with 9 samples.

Results

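In all, 9 genes encoding transcription factors of naive and stem-like T cells were followed in 3 subsets of mouse γδ T cells: Lef1, Tcf7, Sox4, Satb1, Bach2, Id3, Foxo1, Foxp1 and Myb. They were chosen by name, and each was read from the array row that carries its symbol alone, taking the row of highest mean where a gene has several. Of the 9 genes, 8 had such a row among the 22180 genes tested, and Tcf7 is not analysed here. The samples are 9 Affymetrix Mouse Gene 2.0 ST arrays of RNA from γδ T cells of C57BL/6 mice, 3 per subset. IELs are intraepithelial lymphocytes of the intestine, which the descriptions place in the small intestine, and Type-1 and Naive-like cells are subsets of peripheral lymph nodes (axillary, brachial and inguinal). IELs differ from both other subsets in tissue as well, so subset and tissue cannot be told apart there. No treatment or mutation separates the subsets, and the sources used here state no age. Replicates are labelled as biological, with no word on pooling of mice, so the p-values cover the variation among these arrays, which may be technical. The antibodies listed for staining include T-bet, ROR, GATA3, Helios and Foxp3 among nuclear proteins, CD5, CTLA4 and CD8 among others, and none against the 9 factors; the sources used here do not state the gates.

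Most of these factors are known for keeping T cells in a resting, self-renewing state or for holding back effector differentiation. Lef1 and Tcf7 encode HMG-box proteins that bind DNA with β-catenin or with Groucho-family corepressors of the Tle genes, and Sox4 encodes a related HMG-box protein. Satb1 organizes chromatin in T cells, Bach2 and Foxp1 repress effector and activation genes, Id3 blocks the DNA binding of E proteins, Foxo1 drives Il7r, Ccr7 and Klf2, and Myb sustains stem-like cells. In γδ T cells Sox4 and Id3 are best known from the thymus, where they take part in choosing the effector fate.

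Expression is given as log2 values from RMA, a method that corrects background, puts arrays on 1 scale and summarizes the probes of each row. Array rows differ in probe response, so values were compared between subsets within a gene and not between genes. The table holds no detection calls; the median of the 22180 gene means was 4.52, and differences of dim genes are compressed by the method. Differences carry their standard error, and adjusted p is Benjamini-Hochberg over 22180 genes from limma, fitted to all 9 arrays with a threshold of 0.05. In bulk RNA of this kind, fewer cells with a transcript and less transcript per cell cannot be told apart.

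All 8 measured factors were lower in IELs than in Naive-like cells by sign, and 7 fell past the test: Lef1, Myb, Sox4, Satb1, Bach2, Id3 and Foxp1. Across all genes 1.62% fell and 5.19% were called in either direction. In all 8 factors the 3 IEL arrays lay wholly below the 3 Naive-like arrays, which was so for 9.25% of all genes, while 20.1% had no overlap in either direction. Between Type-1 and Naive-like cells 1 of 8 factors fell, Sox4, where 0.0721% of all genes fell and 0.284% were called in either direction. The Type-1 arrays lay wholly below the Naive-like arrays in 4 of 8 factors (Lef1, Sox4, Foxo1 and Myb), against 5.11% of all genes that did so and 11.4% without overlap in either direction. Between IELs and Type-1 cells 4 of 8 fell, namely Lef1, Myb, Satb1 and Bach2, where 1.41% of all genes fell and 5.14% were called in either direction. The IEL arrays lay wholly below the Type-1 arrays in 5 of 8 factors, the same 4 and Foxp1, against 9.78% of all genes that did so and 19.8% without overlap in either direction. The median difference over the 8 factors was -2.17 between IELs and Naive-like cells, -0.64 between Type-1 and Naive-like cells and -1.08 between IELs and Type-1 cells. Over all genes these medians were -0.01, 0.03 and -0.03 in the same order.

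**Figure D1:**
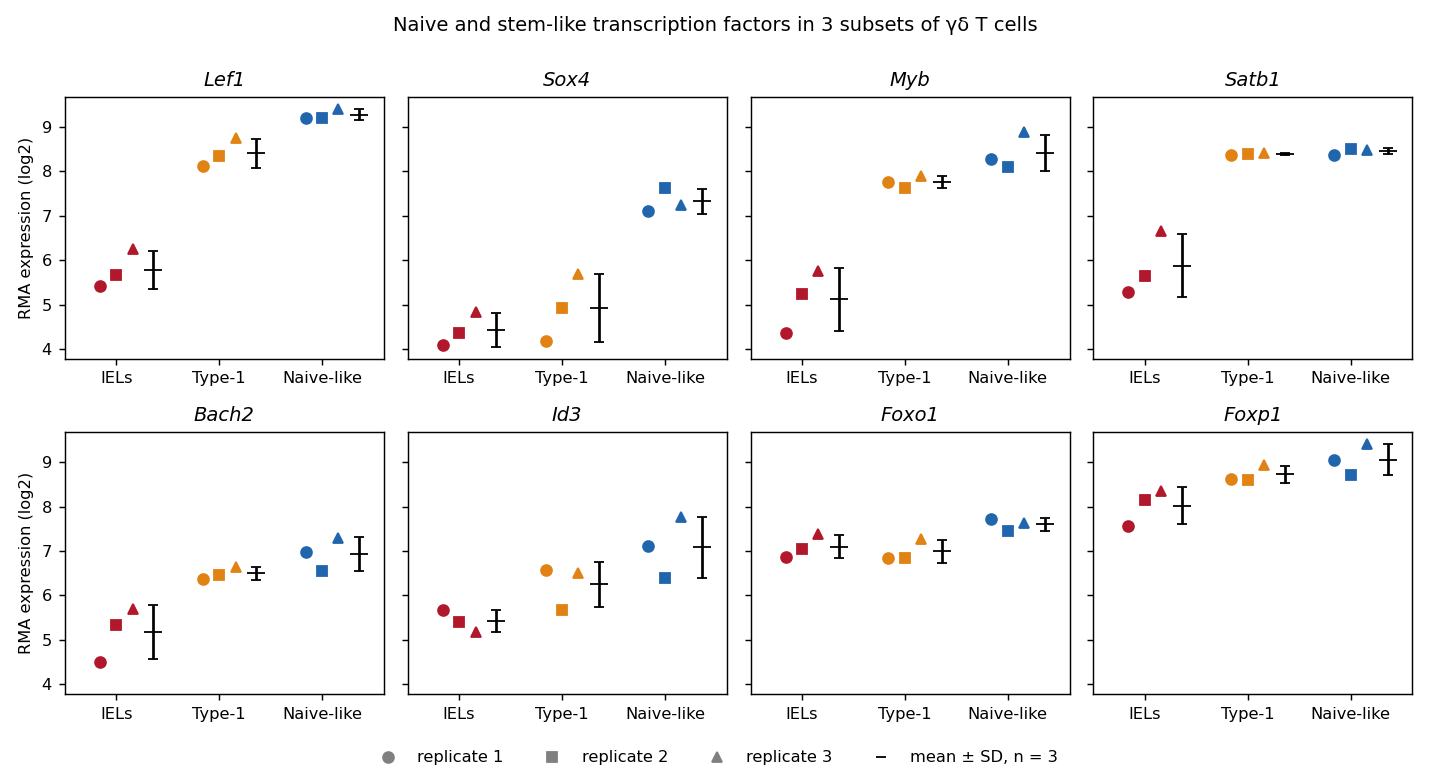
RMA expression on a log2 scale (y axis) of the 8 measured factors on each array, with 3 arrays for each of IELs, Type-1 and Naive-like cells (x axis); symbols mark the replicate number of the sample titles, and black bars give the mean ± SD. In every panel the 3 IEL arrays lie below the 3 Naive-like arrays, while Satb1 is level between Type-1 and Naive-like cells and Sox4 in Type-1 cells overlaps IELs.

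Lef1, the HMG-box partner of β-catenin, had values of 5.41, 5.66 and 6.25 in IELs, of 8.11, 8.35 and 8.74 in Type-1 cells and of 9.21, 9.20 and 9.41 in Naive-like cells. The 3 subsets did not overlap, with IELs lowest and Naive-like cells highest. Lef1 was lower in IELs than in Naive-like cells by a log2 difference of -3.50 ± 0.25 (adjusted p = 3.71e-06), which is 11.3-fold. Against Type-1 cells the difference was -2.62 ± 0.25 (adjusted p = 4.74e-05). Type-1 cells stood -0.87 ± 0.25 from Naive-like cells, which did not pass the test (adjusted p = 0.363; 95% confidence interval -1.41 to -0.33).

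RefSeq holds 4 start windows for Lef1, of 250 bases before and 50 after a transcript start on GRCm38.p6. The most upstream and the most downstream are shown because Lef1 had the largest difference of the 8 factors between IELs and Naive-like cells, and because Lef1 and its family bind the motif searched in them. Capitals mark matches, on either strand, to CTTTGA (TCF/LEF), GTAAACA (FOXO), ACAATG (SOX), TAACNG (MYB), TGAGTCA (BACH and AP-1) or CACCTG (E-box, the site of E proteins). The most upstream window, chr3:131110047-131110346 on the plus strand, had 1 match, to the MYB motif. The most downstream window, chr3:131156044-131156343 on the plus strand, had 2 matches to the TCF/LEF motif on the minus strand, at bases 71 and 131, and 1 each to the SOX and MYB motifs. No match overlapped another. Of the remaining windows, chr3:131110073-131110372 held 1 match each to the MYB motif and the E-box and chr3:131112541-131112840 held none. The array row does not say from which start the RNA came.
Lef1, most upstream window: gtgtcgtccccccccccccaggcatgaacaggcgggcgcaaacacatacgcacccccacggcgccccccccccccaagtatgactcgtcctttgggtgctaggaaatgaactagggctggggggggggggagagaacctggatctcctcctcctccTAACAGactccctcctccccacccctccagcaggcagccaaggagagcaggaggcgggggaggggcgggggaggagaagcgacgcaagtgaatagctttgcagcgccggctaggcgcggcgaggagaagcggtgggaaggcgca
Lef1, most downstream window: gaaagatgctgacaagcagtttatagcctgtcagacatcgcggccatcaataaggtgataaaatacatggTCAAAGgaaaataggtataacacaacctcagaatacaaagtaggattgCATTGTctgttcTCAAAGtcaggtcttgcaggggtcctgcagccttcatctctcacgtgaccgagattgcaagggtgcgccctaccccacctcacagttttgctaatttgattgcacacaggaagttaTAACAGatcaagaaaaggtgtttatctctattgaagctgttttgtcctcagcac

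Of 32851 such windows of all genes, 16.0% held the TCF/LEF motif, 3.65% the FOXO motif, 12.6% the SOX motif, 23.3% the MYB motif, 5.20% the BACH and AP-1 motif and 20.2% the E-box. Taking the window listed at the top for each of the 9 genes, Tcf7 included, the TCF/LEF motif was in 1 (Bach2), the FOXO motif in 1 (Myb), the MYB motif in 3 (Lef1, Id3 and Foxo1), the E-box in 1 (Satb1) and the SOX and BACH motifs in 0. A match is a run of letters and not a measured site, and its absence says nothing of the factor.

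Sox4, the other HMG-box gene, was the factor that fell between the lymph node subsets. Its row of highest mean had values of 4.09, 4.36 and 4.83 in IELs, of 4.17, 4.92 and 5.68 in Type-1 cells and of 7.09, 7.62 and 7.23 in Naive-like cells. Type-1 cells overlapped IELs, and both lay below all Naive-like arrays. Sox4 fell by 2.40 ± 0.34 in Type-1 cells against Naive-like cells (adjusted p = 0.00776), a 5.27-fold difference within the same tissue. In IELs it fell by 2.89 ± 0.34 against Naive-like cells (adjusted p = 0.000212). IELs and Type-1 cells differed by -0.49 ± 0.34, which did not pass (adjusted p = 0.534; 95% confidence interval -1.23 to 0.24). This difference was -0.33 without IELs replicate 1, -0.87 without Type-1 replicate 1 and -0.12 without Type-1 replicate 3, and passed in none of these. Without Naive-like replicate 3 the difference of Type-1 cells from Naive-like cells was -2.44 and missed the threshold (adjusted p = 0.0552).

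The other Sox4 row had lower values, with 3.23, 3.07 and 3.25 in IELs, 3.16, 3.18 and 4.15 in Type-1 cells and 3.53, 3.99 and 5.00 in Naive-like cells. IELs again lay below all Naive-like arrays, while Type-1 replicate 3 lay among them. When all rows were tested, this row differed by -0.99 ± 0.36 between IELs and Naive-like cells (adjusted p = 0.186) and by -0.68 ± 0.36 between Type-1 and Naive-like cells (adjusted p = 0.834), so it did not pass. With the mean of both rows Sox4 differed by -1.54 ± 0.31 between Type-1 and Naive-like cells and missed the threshold (adjusted p = 0.0936), which left 0 of 8 factors called in that comparison. The single RefSeq window of Sox4, chr13:28953650-28953949 on the minus strand, is shown because its row of highest mean passed between the lymph node subsets. This window held no match to the 6 motifs.
Sox4 window: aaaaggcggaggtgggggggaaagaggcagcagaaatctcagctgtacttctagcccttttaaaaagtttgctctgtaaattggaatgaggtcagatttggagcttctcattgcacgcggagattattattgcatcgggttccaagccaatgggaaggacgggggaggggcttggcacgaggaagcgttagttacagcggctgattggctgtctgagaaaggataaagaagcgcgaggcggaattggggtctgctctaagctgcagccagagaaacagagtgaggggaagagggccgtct

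**Figure D2:**
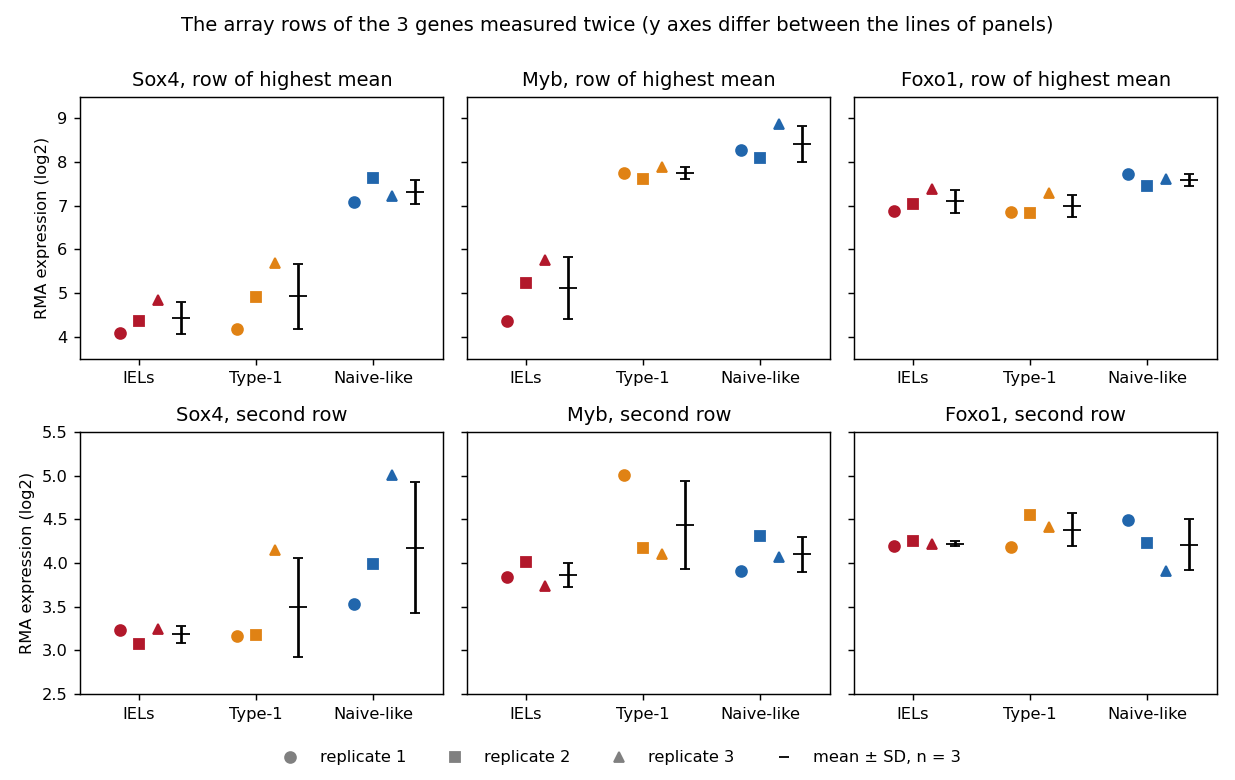
RMA expression on a log2 scale (y axis) by subset (x axis) for both array rows of Sox4, Myb and Foxo1, with 1 point per array, symbols for the replicate number and black bars for the mean ± SD over 3 arrays; the upper and lower panels have different y ranges. The second rows of Myb and Foxo1 stay between 3.73 and 5.01 in every subset, and the second row of Sox4 spans 3.07 to 5.00.

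Myb, which in CD8 T cells sustains stem-like memory, had values of 4.35, 5.23 and 5.76 in IELs, of 7.75, 7.62 and 7.89 in Type-1 cells and of 8.28, 8.10 and 8.87 in Naive-like cells. IELs stood far below both lymph node subsets, which did not overlap each other. Myb fell by 3.30 ± 0.32 in IELs against Naive-like cells (adjusted p = 4.98e-05; 9.87-fold) and by 2.64 ± 0.32 against Type-1 cells (adjusted p = 0.000326). Type-1 and Naive-like cells differed by -0.66 ± 0.32 (adjusted p = 0.8; 95% confidence interval -1.37 to 0.04). The second Myb row, with subset means of 3.86 ± 0.14 in IELs, 4.43 ± 0.51 in Type-1 cells and 4.10 ± 0.20 in Naive-like cells (SD, n = 3), passed in no comparison when all rows were tested. With the mean of both rows the decrease of Myb against Naive-like cells was 1.77, still past the test. The window of Myb, chr10:21160935-21161234 on the minus strand, is shown for its match to the FOXO motif, on the minus strand of the window at base 284.
Myb window: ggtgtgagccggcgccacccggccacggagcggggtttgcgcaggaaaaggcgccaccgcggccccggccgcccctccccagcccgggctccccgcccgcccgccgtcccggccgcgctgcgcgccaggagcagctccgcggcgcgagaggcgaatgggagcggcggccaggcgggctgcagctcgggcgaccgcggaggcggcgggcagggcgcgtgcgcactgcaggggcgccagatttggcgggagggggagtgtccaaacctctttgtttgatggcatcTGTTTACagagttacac

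Satb1, the chromatin organizer, was the most level of the factors across the lymph node. It had values of 5.29, 5.65 and 6.66 in IELs, of 8.37, 8.38 and 8.41 in Type-1 cells and of 8.37, 8.50 and 8.47 in Naive-like cells. The lymph node subsets overlapped and IELs lay below both. The difference of Type-1 from Naive-like cells was -0.06 ± 0.29 (adjusted p = 0.987), with a 95% confidence interval of -0.70 to 0.57. In IELs Satb1 fell by 2.58 ± 0.29 against Naive-like cells (adjusted p = 0.000146) and by 2.52 ± 0.29 against Type-1 cells (adjusted p = 0.000209). Its SD was 0.71 over the IEL arrays, against 0.02 over the Type-1 and 0.07 over the Naive-like arrays. The window listed at the top for Satb1, chr17:51833241-51833540 on the minus strand, is shown beside those of Lef1 and Sox4 as that of a gene with level values in the lymph node. It held 1 match, to the E-box, at base 252. Of the further Satb1 windows, chr17:51832598-51832897 held no match and chr17:51826539-51826838 held 1, to the E-box. The MYB motif had 1 match in chr17:51812135-51812434 and 2 in chr17:51812005-51812304, which overlap and share 1 of these sites.
Satb1 window: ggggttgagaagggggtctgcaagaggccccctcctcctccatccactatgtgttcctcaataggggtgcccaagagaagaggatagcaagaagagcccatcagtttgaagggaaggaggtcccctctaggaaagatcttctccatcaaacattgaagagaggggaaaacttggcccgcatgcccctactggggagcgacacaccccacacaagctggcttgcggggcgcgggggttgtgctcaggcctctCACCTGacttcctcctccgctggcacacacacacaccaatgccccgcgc

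Bach2, a repressor that restrains effector genes, had values of 4.51, 5.33 and 5.69 in IELs, of 6.37, 6.47 and 6.64 in Type-1 cells and of 6.98, 6.54 and 7.29 in Naive-like cells. IELs were lowest and apart, while the lymph node subsets overlapped. Bach2 fell by 1.76 ± 0.29 in IELs against Naive-like cells (adjusted p = 0.00301) and by 1.32 ± 0.29 against Type-1 cells (adjusted p = 0.0209). The difference of Type-1 from Naive-like cells was -0.44 ± 0.29 (adjusted p = 0.876). The call against Type-1 cells was missed without IELs replicate 2 (-1.39, adjusted p = 0.0556), Type-1 replicate 2 (-1.33, adjusted p = 0.0565) or Type-1 replicate 3 (-1.25, adjusted p = 0.0564).

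Id3, the inhibitor of E proteins, had values of 5.68, 5.40 and 5.18 in IELs, of 6.57, 5.67 and 6.51 in Type-1 cells and of 7.10, 6.38 and 7.76 in Naive-like cells. Type-1 cells reached into the range of each neighbour, and IELs and Naive-like cells did not overlap. Id3 fell by 1.66 ± 0.34 in IELs against Naive-like cells (adjusted p = 0.0113). The remaining comparisons did not pass, at -0.83 ± 0.34 for Type-1 against Naive-like cells (adjusted p = 0.700) and -0.83 ± 0.34 for IELs against Type-1 cells (adjusted p = 0.235). The call was missed without IELs replicate 3 (-1.54, adjusted p = 0.0595) or Naive-like replicate 3 (-1.32, adjusted p = 0.0510).

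The 2 forkhead genes had the smallest differences between IELs and Naive-like cells. Foxp1, a guardian of T-cell quiescence, had values of 7.56, 8.15 and 8.35 in IELs, of 8.63, 8.61 and 8.93 in Type-1 cells and of 9.05, 8.71 and 9.41 in Naive-like cells. It fell by 1.04 ± 0.25 in IELs against Naive-like cells (adjusted p = 0.0316), and differed by -0.70 ± 0.25 between IELs and Type-1 cells (adjusted p = 0.169) and by -0.34 ± 0.25 between Type-1 and Naive-like cells (adjusted p = 0.898). The IEL arrays lay below all others, and the lymph node subsets overlapped. The call against Naive-like cells was missed without IELs replicate 1 (-0.81, adjusted p = 0.103), IELs replicate 2 (-1.10, adjusted p = 0.0754), Naive-like replicate 1 (-1.04, adjusted p = 0.105) or Naive-like replicate 3 (-0.86, adjusted p = 0.135).

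Foxo1, the forkhead factor that drives Il7r and Klf2, had values of 6.87, 7.05 and 7.37 in IELs, of 6.85, 6.84 and 7.28 in Type-1 cells and of 7.73, 7.45 and 7.62 in Naive-like cells. IELs and Type-1 cells overlapped, and both lay below the Naive-like arrays. No comparison of Foxo1 passed the test. The difference was -0.50 ± 0.21 for IELs against Naive-like cells (adjusted p = 0.284; 95% confidence interval -0.96 to -0.04), -0.61 ± 0.21 for Type-1 against Naive-like cells (adjusted p = 0.562) and 0.11 ± 0.21 for IELs against Type-1 cells (adjusted p = 0.852). Its second row had subset means of 4.22 ± 0.03 in IELs, 4.38 ± 0.19 in Type-1 cells and 4.21 ± 0.29 in Naive-like cells (SD, n = 3) and passed in no comparison when all rows were tested.

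**Figure D3:**
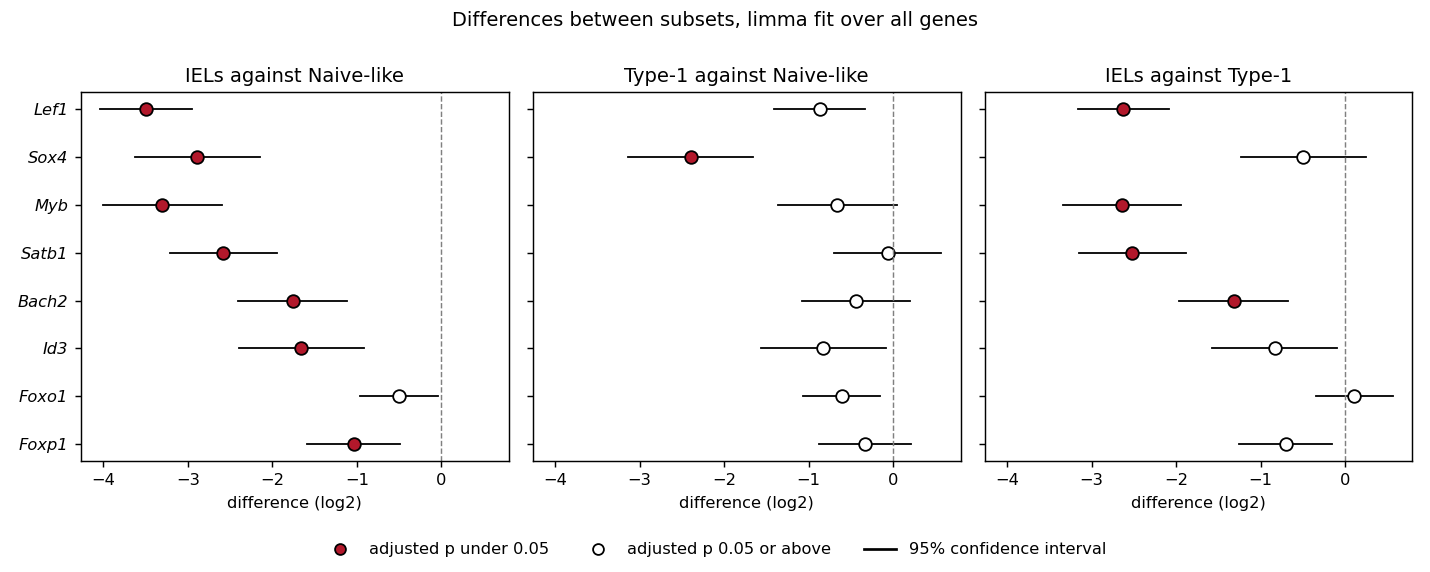
Log2 differences (x axis) of the 8 measured factors (y axis) in each comparison, with 95% confidence intervals from the limma fit over all 22180 genes; filled points have an adjusted p under 0.05. Sox4 is the filled point between Type-1 and Naive-like cells, while Lef1, Myb, Satb1 and Bach2 are filled between IELs and Type-1 cells.

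Ordered by mean, 7 of the 8 factors ran from IELs through Type-1 cells to Naive-like cells, and Foxo1 was lowest in Type-1 cells. The share of all genes in this order was not computed. No factor passed both between IELs and Type-1 cells and between Type-1 and Naive-like cells. Satb1 differed by -0.06 between the lymph node subsets, so the order of means is not a tested gradient. The likeness of profiles was measured as the root mean square, over the 9 arrays, of the difference between 2 genes after the mean of each was subtracted. Among the 28 pairs of factors Lef1 and Myb were most alike, at 0.26 on the log2 scale, and Lef1 and Foxo1 least, at 1.36. Outside the factors, the search covered 1387 named genes that passed in at least 1 comparison. Nearest to Lef1 were Cd5 (0.29), whose product dampens signals of the antigen receptor, and Trim30c (0.29). Nearest to Sox4 were Plxdc2 (0.39) and the glutamate receptor subunit gene Gria3 (0.45). Slamf6 (0.30), a receptor of the SLAM family, and Aff3 (0.31) were nearest to Myb, and the dynein gene Dnah8 (0.25) and the diacylglycerol kinase gene Dgka (0.31) to Satb1. Bach2 was nearest to the costimulatory receptor gene Cd27 (0.16) and to Il17ra (0.18), and Foxp1 to the peptide transporter gene Tap1 (0.17) and to Rgs19 (0.17). Id3 was nearest to Pik3ip1 (0.29), which encodes an inhibitor of PI3 kinase, and to Dpp4 (0.30).

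Genes known as targets of Foxo1, Tcf7 or Lef1 in T cells went both ways. For scale, 1.62% of all genes fell and 3.57% rose in IELs against Naive-like cells. Against Type-1 cells 1.41% of all genes fell and 3.73% rose in IELs, and 0.0721% fell between Type-1 and Naive-like cells. Of 19 measured genes, 9 fell and 2 rose in IELs against Naive-like cells, with a median of -0.54 against -0.01 over all genes. S1pr1, the receptor for exit from lymph nodes, fell by 4.83 ± 0.33, the interleukin 6 receptor gene Il6ra by 3.95 ± 0.23, Cd5 by 3.81 ± 0.25 and Slamf6 by 3.29 ± 0.39. The genes that rose were the inhibitory receptor gene Ctla4 (2.65 ± 0.32) and the survival gene Bcl2 (0.81 ± 0.20). Against Type-1 cells 10 fell and 2 rose in IELs, including S1pr1 (-4.13 ± 0.33), Cd5 (-3.25 ± 0.25), Ctla4 (3.0 ± 0.32) and Slamf6 (-2.84 ± 0.39). In Type-1 against Naive-like cells 1 gene passed, Il6ra, which fell by 1.59 ± 0.23. The medians were -1.09 between IELs and Type-1 cells and -0.32 between Type-1 and Naive-like cells. Ctla4 and Bcl2 are named beyond the rule in the comparison with Naive-like cells, after their values were seen.

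Of 21 measured Wnt and β-catenin partners, 2 fell in IELs against Naive-like cells, the β-catenin cofactor genes Bcl9l (-1.75 ± 0.20) and Bcl9 (-1.39 ± 0.32), and none rose. Bcl9l was also the gene that fell against Type-1 cells (-1.31 ± 0.20). Of all genes, 5.19% were called in either direction in IELs against Naive-like cells and 5.14% against Type-1 cells. The 1 of 21 called against Type-1 cells is thus near the share of all genes. Between Type-1 and Naive-like cells none of the 21 passed, Bcl9 having the largest difference at -1.51 ± 0.32 (adjusted p = 0.135). The median of this list was -0.37 between IELs and Naive-like cells, 0.12 between IELs and Type-1 cells and -0.38 between Type-1 and Naive-like cells. Of 16 measured kinases, phosphatases and pseudokinases upstream of Foxo1, Pik3cb, a catalytic subunit of PI3 kinase, rose in IELs by 2.70 ± 0.26 against Naive-like and by 2.63 ± 0.26 against Type-1 cells. The pseudokinase gene Trib1 rose too, by 1.57 ± 0.27 and by 2.78 ± 0.27, while Trib2 fell in IELs against Naive-like cells by 1.29 ± 0.34 (adjusted p = 0.0498). Between Type-1 and Naive-like cells none of the 16 passed, and Trib2 had the largest difference at -1.39 ± 0.34 (adjusted p = 0.220).

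Of 19 measured family members, 1 passed, Foxo3, which was higher in IELs by 1.22 ± 0.25 against Naive-like cells (adjusted p = 0.0105) and by 1.2 ± 0.25 against Type-1 cells (adjusted p = 0.0125). Across all genes 5.19% were called in the first of these comparisons and 5.14% in the second, so 1 of 19 is near the share of all genes. Foxo3 encodes a forkhead protein of the same family as Foxo1. The TCF relatives Tcf7l1 and Tcf7l2 did not pass, at 0.29 ± 0.19 and -0.35 ± 0.28 for IELs against Naive-like cells. In Type-1 against Naive-like cells none of the 19 passed, Tcf7l2 having the largest difference at -0.69 ± 0.28 (adjusted p = 0.695). Sox13, a γδ lineage gene related to Sox4, differed by -0.27 ± 0.23 between IELs and Naive-like cells (adjusted p = 0.732). Id2, the other Id gene of mature T cells, differed by 0.67 ± 0.21 in the same comparison (adjusted p = 0.113). Tcf7l1, Sox13 and Id2 are named as relatives of the factors that fell, after their values were seen.

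Other regulators of naive and quiescent T cells were mixed. The shares of all genes called in either direction were 5.19% in IELs against Naive-like cells and 5.14% against Type-1 cells. Of 20, 4 fell in IELs against Naive-like cells and 2 rose, with a median of -0.18. The genes with the largest differences among these were the Krüppel-like factor genes Klf2 (-1.89 ± 0.32) and Klf3 (-1.66 ± 0.30), the antiproliferative gene Tob1 (1.14 ± 0.24) and the T-cell identity factor gene Bcl11b (-1.11 ± 0.26). Against Type-1 cells 2 fell and 3 rose in IELs, with Klf3 at -1.72 ± 0.30, Btg2 at 1.59 ± 0.25, Klf2 at -1.58 ± 0.32 and Tox at 1.49 ± 0.31. Between Type-1 and Naive-like cells none passed, and Tox had the largest difference at -0.86 ± 0.31 (adjusted p = 0.603). Among 16 measured E proteins and γδ fate regulators, Bcl11b and Egr3 (-1.03 ± 0.27) fell and Hes1 (0.82 ± 0.21) and Egr1 (0.81 ± 0.20) rose in IELs against Naive-like cells. Against Type-1 cells Tcf4, Runx3 and Egr1 rose by 1.17 ± 0.23, 1.12 ± 0.25 and 0.91 ± 0.20. Tcf4, an E-protein gene, had the largest difference of this list between Type-1 and Naive-like cells, at -1.26 ± 0.23, and missed the threshold (adjusted p = 0.0529).

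Effector and residency transcription factors mostly ran the other way in IELs. Over all genes, 3.57% rose and 1.62% fell in IELs against Naive-like cells, and 3.73% rose and 1.41% fell against Type-1 cells. Between Type-1 and Naive-like cells 0.212% of all genes rose. Of 20 measured genes, 11 rose and 1 fell against Naive-like cells, with a median of 1.59, the largest being Nr4a2 (4.18 ± 0.44), an orphan nuclear receptor induced by antigen receptor signals, Prdm1 (3.24 ± 0.25), which encodes Blimp-1, Bhlhe40 (3.0 ± 0.33) and Nfil3 (2.76 ± 0.30). Against Type-1 cells 12 rose and 1 fell, with a median of 1.42, Nr4a2 (4.38 ± 0.44), Nr4a1 (2.87 ± 0.36) and Nr4a3 (2.75 ± 0.52) among those that rose and Eomes at -3.41 ± 0.27. In Type-1 against Naive-like cells 2 rose, Tbx21 by 1.95 ± 0.29 and Eomes by 1.52 ± 0.27, and the median was -0.03. These comparisons share arrays, so the lists above are given side by side and not correlated.

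**Figure D4:**
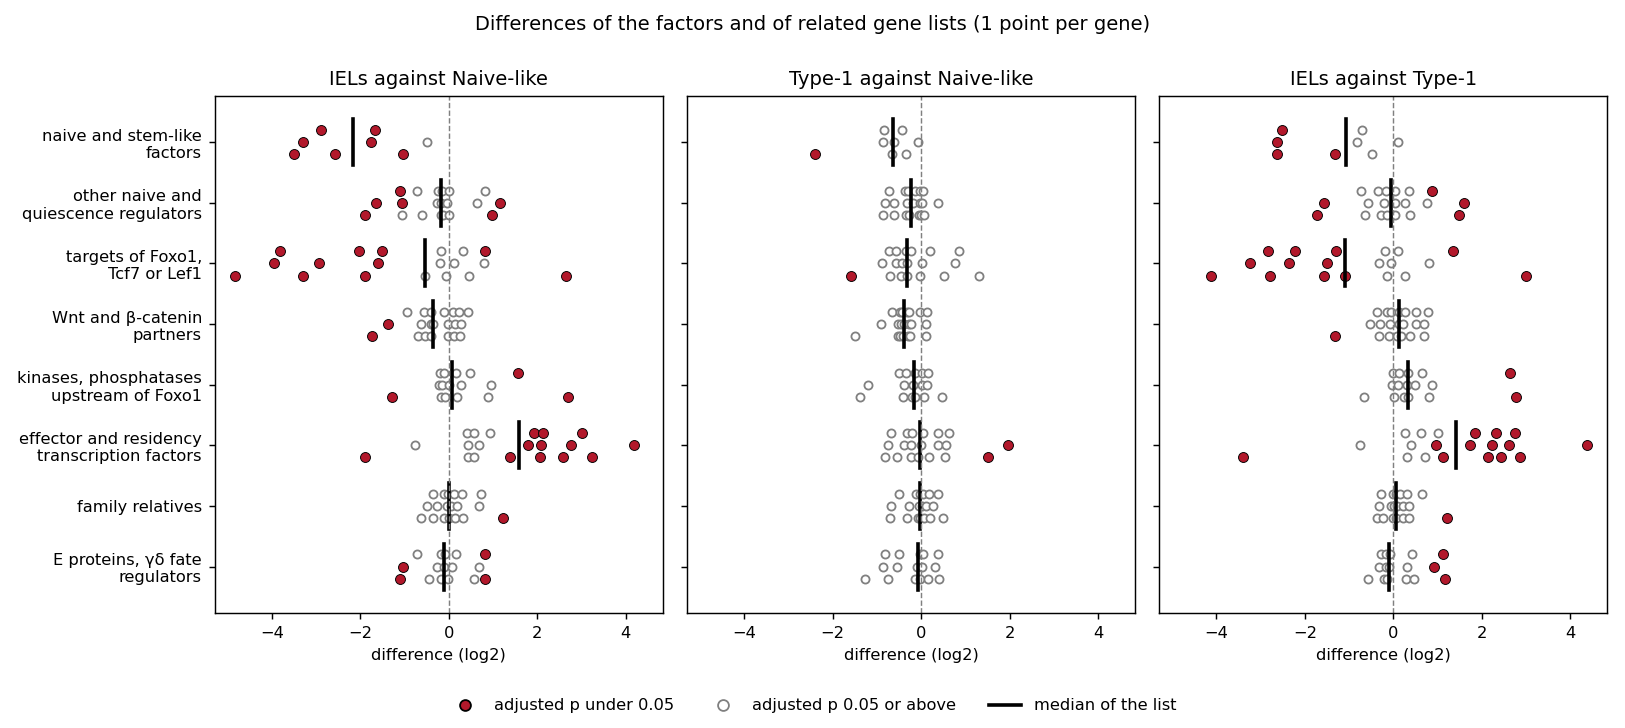
Log2 differences (x axis) of the 8 measured factors and of the 7 related gene lists (y axis) in each comparison, with 1 point per gene, filled where the adjusted p was under 0.05, and a black line at the median of the list. The factors lie left of 0 in IELs against Naive-like cells, where effector and residency transcription factors have a median of 1.59 and family relatives a median of 0.01.

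Markers were read to set the values beside what else the samples held. The γδ T-cell list had 8 measured genes of 13, with a mean log2 value of 9.22 to 9.29 in IELs, 8.73 to 9.03 in Type-1 cells and 8.70 to 9.17 in Naive-like cells. This mean was carried by Cd3d, Cd3e, Cd3g, Zap70, Lat and Ptprc, which αβ T cells also express. The γδ receptor segments Trgv5 and Trgv6 were dim, at 2.82 to 4.95 and 3.76 to 5.73 over all 9 arrays. The list therefore does not set γδ T cells apart from αβ T cells. Cd3d, Cd3e and Cd3g of the receptor complex averaged 11.17, 11.72 and 12.0 in IELs and 11.16, 10.84 and 11.45 in Naive-like cells, while the receptor constant-region gene Trdc is not analysed here. Of 24 epithelial genes 15 rose and none fell in IELs against Naive-like cells, and 13 rose against Type-1 cells. The shares of all genes that rose were 3.57% and 3.73% in these comparisons. The mean of this list was 5.48 to 6.20 over the IEL arrays, against 4.04 to 4.22 over the Type-1 and 4.02 to 4.24 over the Naive-like arrays. Cdh1 rose by 3.71 and Epcam by 1.57 in IELs against Naive-like cells, and Vil1 did not pass, at 0.57. The log2 scale has no 0, so no marker can be called absent from it. The share of epithelial RNA in the lower values of the factors in IELs was not tested.

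Some genes listed as markers of other cells also moved with the subsets. Cd8b1, the CD8 β chain typical of αβ T cells, had values of 8.88, 7.46 and 6.27 in IELs, of 8.14, 8.05 and 8.43 in Type-1 cells and of 10.33, 10.20 and 10.50 in Naive-like cells. It fell by 2.81 ± 0.47 in IELs against Naive-like cells (adjusted p = 0.00313) and differed by -2.14 ± 0.47 between Type-1 and Naive-like cells (adjusted p = 0.141). Among the IEL arrays Cd8b1 was highest in replicate 1, on which 7 of 8 factors were lowest. This rests on 1 array, and a link between the values was not tested. The other measured genes of the αβ T-cell list, Cd4 and Foxp3, did not pass, at -0.19 ± 0.21 and -0.36 ± 0.21, and the mean of the 3 measured genes of 6 was 4.71 to 5.23 in IELs, 5.39 to 5.40 in Type-1 cells and 6.11 to 6.13 in Naive-like cells. None of 11 measured B-cell genes passed, with a mean of 3.57 to 3.81 in IELs, 3.78 to 4.05 in Type-1 cells and 3.80 to 4.00 in Naive-like cells. Of 8 measured NK and innate lymphoid markers 6 rose in IELs and 2 in Type-1 cells against Naive-like cells, with a mean of 6.27 to 6.71, 5.59 to 6.4 and 5.18 to 5.23 in IELs, Type-1 and Naive-like cells. Of 12 myeloid genes 2 rose and of 10 stromal and endothelial genes 1 fell in IELs against Naive-like cells. Among all genes 3.57% rose and 1.62% fell there, and the medians of these lists were -0.06 and -0.11. Itgax of the myeloid list had values of 8.87, 9.47 and 9.52 in IELs and of 4.39, 4.84 and 4.03 in Naive-like cells. Pecam1 of the stromal list had values of 5.41, 6.19 and 6.52 in IELs and of 8.67, 8.87 and 8.99 in Naive-like cells. Whether such cells were present, and what part they had in the result, was not tested.

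A date code stands in the description of replicate 3 of each subset and in no other. The date-coded array was above the mean of the other arrays of its subset in 7 of 8 factors in IELs, 8 of 8 in Type-1 cells and 7 of 8 in Naive-like cells, by a median of 0.66, 0.35 and 0.37. The exceptions were Id3 in IELs (-0.36) and Sox4 in Naive-like cells (-0.12). The share of all genes that lay above in the same way was not computed. In each subset the array median over the 22180 genes was lowest on the date-coded array. It was 4.46 in IELs, 4.45 in Type-1 cells and 4.38 in Naive-like cells. Whether the higher factor values on the date-coded arrays come from the arrays or from the cells was not tested. With the date code as a term in the fit, 7 factors were called between IELs and Naive-like cells, 1 between Type-1 and Naive-like cells and 4 between IELs and Type-1 cells. Between the date-coded arrays alone, 1 per subset and with no test, Lef1 differed by -3.15, Myb by -3.11, Id3 by -2.58, Sox4 by -2.40, Satb1 by -1.81, Bach2 by -1.60, Foxp1 by -1.06 and Foxo1 by -0.25 between IELs and Naive-like cells, and Sox4 by -1.56 between Type-1 and Naive-like cells. In the same order 5, 1 and 3 factors were called within the 6 arrays without the code. There Id3 (-1.2, adjusted p = 0.209) and Foxp1 (-1.03, adjusted p = 0.137) lost their calls against Naive-like cells and Bach2 (-1.50, adjusted p = 0.0581) its call against Type-1 cells. Over the 22180 genes, correlations were 0.947 to 0.982 between arrays of 1 subset and 0.912 to 0.975 between arrays of different subsets.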

How the data were processed

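Gene expression was measured on 9 arrays, 3 for each subset, grouped by the sample titles. The authors deposited log2 values for 41345 array rows, for which the submitters' processing notes name oligo and RMA, without versions or filters. Rows were named through the platform annotation: 23521 rows had 1 symbol, 1814 several and 16010 none, and the rows of 1 symbol gave 22180 genes, the row of highest mean standing for a gene.

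limma 3.58.1 (R 4.3.3) fitted a mean for each subset over all 9 arrays, with contrasts and eBayes without trend (6 residual and 6 prior degrees of freedom). Its tests are two-sided, adjusted by Benjamini-Hochberg over all 22180 genes, and called under 0.05. The script was tested on simulated data. The number of arrays limits the precision.

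The factors, lists and markers were chosen with earlier results of these data known. Genes named from a list are up to 4 that passed with the largest absolute difference, or the largest where none passed; the nearest 2 profiles are named per factor that passed; others are marked or are markers. Promoter windows come from RefSeq, GRCm38.p6, and all 9 genes matched. Alternatives were other row choices, a filter on dim genes, 3 normalizations, 2 spread models, only the subsets compared, 3 blocks, arrays without the date code and each array left out.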

Additional observations from a re-analysis of the deposited data

How the results depend on the processing

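Each result was recomputed under 22 alternatives. Of 528 values of single factors 506 kept their direction and side of the threshold, 15 lost the call, 2 gained it and 5 changed sign. The calls of Lef1, Myb, Sox4, Satb1 and Bach2 between IELs and Naive-like cells, and of Lef1, Myb and Satb1 between IELs and Type-1 cells, held under all 22. The 5 changes of sign were of differences near 0 that passed in no setting. Foxo1, at 0.11 between IELs and Type-1 cells, was -0.027 with the mean of a gene's rows, -0.065 after quantile normalization again, -0.015 after cyclic loess and -0.030 to 0.25 with each array left out, the lowest without IELs replicate 3 and the highest without Type-1 replicate 3; Satb1, at -0.06 between Type-1 and Naive-like cells, was 0.049 after cyclic loess. Foxp1 between IELs and Type-1 cells passed after quantile normalization again (adjusted p = 0.0322) and cyclic loess (adjusted p = 0.0433), and its call against Naive-like cells was lost with array medians subtracted (adjusted p = 0.0519). The cause was not tested.

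Leaving out each array gave 5 to 7 factors called in IELs against Naive-like cells, 0 to 1 in Type-1 against Naive-like cells and 3 to 4 in IELs against Type-1 cells; Sox4 was lost in the middle comparison without Naive-like replicate 3, and 0 factors were called with the mean of a gene's rows. The count over all genes was 1152, 63 and 1140 in these comparisons. It was 534, 20 and 565 when the date-coded arrays were dropped, which leaves fewer samples, and 1920 with array weights in IELs against Naive-like cells. Leaving out each array gave 826 to 1227, 34 to 87 and 724 to 1308 genes; the lowest were without Naive-like replicate 3 between Type-1 and Naive-like cells, and without IELs replicate 3 (724) or replicate 2 (732) for IELs against Type-1 cells.

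With the replicate block, 1378, 81 and 1405 genes and 7, 1 and 4 factors were called in the same order. Same-numbered arrays of different subsets correlated at -0.015 to 0.38 in their deviations, above 0.1 in 6 of 9 pairs, against 1 of 18 pairs of other numbers (-0.29 to 0.21). The 3 pairs of number 3, the date-coded arrays, lay at 0.23 to 0.38. Same-numbered arrays thus deviated together in part. The array descriptions also sort the arrays into sets with 1 array of each subset, the date-coded arrays among them. Within these sets the correlations were 0.07 to 0.38. With the set as a term, 1397, 82 and 1452 genes and 7, 1 and 4 factors were called. The pair of other numbers above 0.1, Naive-like replicate 1 with Type-1 replicate 2 (0.21), was of the same set. Since not every same-numbered pair was above 0.1, the fit without the replicate block was kept. That is no ground against the set term, as all pairs within a set were positive. The main fit leaves this shared deviation in its spread and calls fewer genes. No call of a factor changed under the replicate block or the set term. Signal over background cannot be given, since the table has no detection calls.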

Other observations

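A further row of the array carries the symbols of both Bach2 and its antisense neighbour Bach2os and was used in no comparison. Its values were 4.42, 4.41 and 3.95 in IELs, 4.26, 5.35 and 4.13 in Type-1 cells and 4.24, 4.29 and 4.07 in Naive-like cells, and the subsets overlapped.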
